A study of Mus musculus with 16 samples.

Results

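The B cell precursor genes described here are 10 genes that mouse bone marrow uses to build early B lymphocytes: Vpreb1, Igll1, Vpreb3, Rag1, Rag2, Dntt, Ebf1, Pax5, Cd79a and Cd79b. Their members on the array were taken as every probe set whose platform annotation gives 1 of these symbols and no other. That rule found 18 probe sets for all 10 genes, out of 45037 probe sets and 18193 gene symbols measured. Ebf1 had 5 probe sets, Dntt 3, Igll1 2 and Pax5 2, and the other genes had 1 each. Each gene is represented below by its probe set of highest mean over the 16 arrays. For Igll1 and Dntt that probe set carries the suffix with which the manufacturer marks probes that may cross-hybridise to other transcripts.

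B cells are made in the marrow from lymphoid progenitors, and the transcription factors Ebf1 and Pax5 set and hold the lineage. Rag1 and Rag2 together form the recombinase that cuts the immunoglobulin genes, and Dntt, the terminal transferase, adds untemplated nucleotides at the joins of the heavy chain. Vpreb1 and Igll1 form the surrogate light chain, which pairs with the new heavy chain in the pre-B cell receptor, and Cd79a and Cd79b are the signalling subunits of that receptor and of the mature one. Vpreb3 encodes a related small protein of B lineage cells. In mice, estrogen is known to lower the production of B cell precursors in marrow and ovariectomy to raise it.

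The tissue was a piece of long bone with its marrow, the distal 5 mm of the left femur, taken from female C57BL/6 mice after ovariectomy, with 1 array per mouse and no pooling of RNA. The 4 groups of 4 mice were osteoclast-specific estrogen receptor alpha knockouts (ERaKO) harvested 4 h after estrogen, ERaKO mice given vehicle, wild-type (WT) mice harvested 4 h after estrogen, and WT mice given vehicle. All 16 mice thus lacked ovaries, so each estrogen comparison is of estrogen given back for 4 h against continued lack of it. The vehicle of the ERaKO mice without estrogen is stated only by the series design. The labels used here name no driver of the deletion, no estrogen compound, no dose and no age. They limit the deletion to osteoclasts, which are 1 of the cell types of this tissue and are not known to make the products of the 10 genes. The design asks how bone responds to estrogen with and without the receptor in osteoclasts.

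The arrays had been scaled by the authors to the same overall level, with a 2% trimmed mean of 500 on each, and the median signal was 153 to 217. Esr1, the targeted gene, had signals of 409 to 753 in ERaKO mice given estrogen and 580 to 723 in ERaKO mice given vehicle, against 434 to 664 in WT mice given estrogen and 792 to 1100 in WT mice given vehicle. The ERaKO and WT ranges overlapped after estrogen and not under vehicle. B lineage markers were present on every array, with Ms4a1 at 393 to 1405 and Ighm at 3126 to 20817, and so were the osteoclast markers Ctsk at 3295 to 13852 and Acp5 at 5529 to 20254. The mice numbered 3 and 4 in each group differed from those numbered 1 and 2. Acta1 of skeletal muscle was at 636 to 5859 in replicates 3 and 4 and at 12030 to 71278 in replicates 1 and 2. In addition 3 arrays, ERaKO estrogen replicate 1, WT estrogen replicate 2 and WT vehicle replicate 2, had a median bacterial spike-in signal of 11606 to 22958, against 2680 to 4888 on the other 13 arrays. The Actb signal from its 3′ end over that from its 5′ end was 2.07 to 3.53 on these 3, against 1.17 to 1.50 on the other 13.

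RefSeq promoters (build GRCm38.p6, 250 bases before the gene start) were given for 9 of the 10 genes. The 6 base E-box CAGGTG, a sequence that E proteins such as the Tcf3 product bind in B lineage enhancers, was searched on both strands (CACCTG on the other). It occurred in the promoters of Vpreb1, Igll1, Rag1 and Cd79a, which is 4 of these 9 genes, and in 5657 of 32851 mouse promoters (17.2%). These are the 4 promoters shown, with the E-box in capitals. They cover chr16:16869256-16869505 on the minus strand for Vpreb1, chr16:16863986-16864235 on the minus strand for Igll1, chr2:101649533-101649782 on the minus strand for Rag1 and chr7:24897247-24897496 on the plus strand for Cd79a, each written 5′ to 3′ toward the gene start.
Vpreb1: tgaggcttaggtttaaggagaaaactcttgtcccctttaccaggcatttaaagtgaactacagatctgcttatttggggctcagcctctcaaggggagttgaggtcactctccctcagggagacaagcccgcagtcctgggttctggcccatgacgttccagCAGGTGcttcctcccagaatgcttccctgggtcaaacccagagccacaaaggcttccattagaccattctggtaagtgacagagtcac
Igll1: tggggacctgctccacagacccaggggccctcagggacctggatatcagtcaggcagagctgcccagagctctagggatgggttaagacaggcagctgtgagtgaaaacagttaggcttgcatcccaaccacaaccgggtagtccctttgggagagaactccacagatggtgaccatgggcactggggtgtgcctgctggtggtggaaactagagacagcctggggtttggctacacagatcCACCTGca
Rag1: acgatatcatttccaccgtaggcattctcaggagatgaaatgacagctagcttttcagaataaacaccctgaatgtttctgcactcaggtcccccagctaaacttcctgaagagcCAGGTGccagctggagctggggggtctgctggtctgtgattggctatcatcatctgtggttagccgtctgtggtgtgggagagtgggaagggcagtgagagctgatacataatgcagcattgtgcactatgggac
Cd79a: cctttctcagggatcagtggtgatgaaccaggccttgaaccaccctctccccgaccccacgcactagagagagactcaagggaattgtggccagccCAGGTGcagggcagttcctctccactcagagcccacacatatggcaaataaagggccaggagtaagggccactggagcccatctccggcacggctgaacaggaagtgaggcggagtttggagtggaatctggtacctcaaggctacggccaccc
The E-box began 88 bases before the gene start in Vpreb1, 8 in Igll1, 135 in Rag1 and 154 in Cd79a. Vpreb1 and Igll1 lie close together on chromosome 16. The palindromic Ebf1 motif occurred in 256 of the 32851 promoters (0.779%) and the palindromic estrogen response element in 21 (0.0639%). Neither was in these windows of the 9 genes, and a match or its lack describes only the letters searched.

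Averaged over both genotypes, Vpreb1 and Igll1 of the surrogate light chain had the lowest estrogen differences on the whole array. The scatter between mice was wide. Vpreb1 had signals of 439, 2312, 1062 and 242 in ERaKO mice given estrogen (replicates 1 to 4), against 6964, 2438, 3898 and 1577 in ERaKO mice given vehicle. Its signals in WT mice given estrogen were 6306, 2853, 33.1 and 853, against 4071, 3249, 4112 and 3346 in WT mice given vehicle. The 4 WT vehicle mice lay close together, whereas the other 3 groups spread widely, and the estrogen and vehicle groups overlapped in both genotypes. Mean signals were 1014 ± 933 and 3719 ± 2366 in ERaKO mice given estrogen and vehicle, and 2511 ± 2793 and 3695 ± 461 in WT mice given estrogen and vehicle (SD, n = 4 each). All differences below are given on the log2(signal + 16) scale. Estrogen minus vehicle averaged over both genotypes was −2.05 ± 0.73 (SE) for Vpreb1, with a limma adjusted p of 0.962.

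Igll1, the partner of Vpreb1 in the surrogate light chain, followed Vpreb1 closely. Its signals were 229, 1399, 542 and 195 in ERaKO mice given estrogen, against 3947, 2046, 1622 and 860 in ERaKO mice given vehicle. In WT mice they were 3014, 876, 154 and 580 after estrogen and 2512, 1481, 2249 and 1930 under vehicle. As for Vpreb1, 3 of the 4 WT mice given estrogen lay below every WT vehicle mouse, and replicate 1 lay above them all. The averaged estrogen difference of Igll1 was −1.76 ± 0.49 (limma adjusted p = 0.655). That value comes from the probe set with the cross-hybridisation suffix. The other Igll1 probe set was dim, with signals of 4.19 to 45.5. It gave −0.38 ± 0.35 in ERaKO mice and 0.03 ± 0.35 in WT mice. Vpreb3 had signals of 417, 1089, 835 and 584 in ERaKO mice given estrogen, against 2354, 1691, 1356 and 632 in ERaKO mice given vehicle. In WT mice Vpreb3 was at 1320, 575, 235 and 940 after estrogen and at 1321, 1016, 2079 and 1280 under vehicle. The Vpreb3 groups overlapped in both genotypes, and the averaged difference was −1.02 ± 0.32 (limma adjusted p = 0.849). A further probe set annotated to both Vpreb2 and Vpreb1, not counted among the 18, had an averaged difference of −1.13 ± 0.38.

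**Figure D1:**
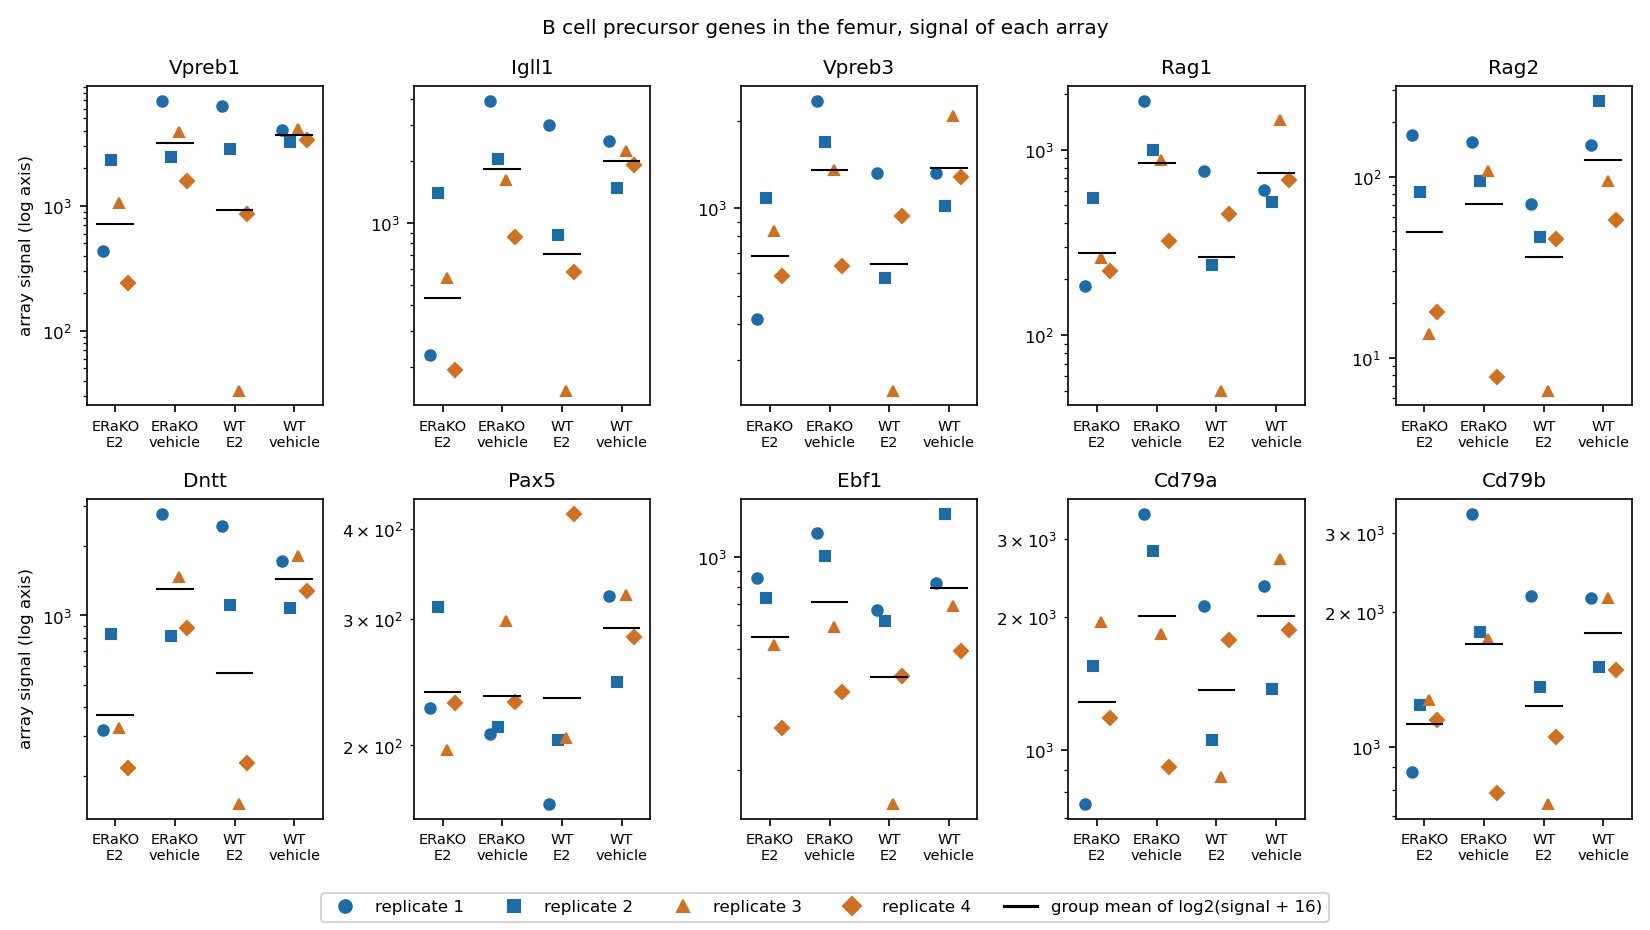
Signal of each of the 10 genes on each of the 16 arrays, on log axes, with ERaKO mice given estrogen (E2), ERaKO mice given vehicle, WT mice given estrogen and WT mice given vehicle from left to right. Symbols are replicates, blue for replicates 1 and 2 and orange for 3 and 4, and bars are group means of log2(signal + 16) taken back to the signal scale. WT estrogen replicate 3 is the lowest array for 8 of the 10 genes.

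The recombination genes Rag1 and Dntt were also low in most mice given estrogen. Rag1 was at 185, 548, 262 and 223 in ERaKO mice given estrogen, against 1839, 995, 875 and 320 in ERaKO mice given vehicle. In WT mice Rag1 was at 767, 240, 50.2 and 450 after estrogen and at 604, 522, 1446 and 686 under vehicle. Only ERaKO estrogen replicate 2 lay above any ERaKO vehicle mouse, and only WT estrogen replicate 1 above any WT vehicle mouse. The averaged difference of Rag1 was −1.50 ± 0.44 (limma adjusted p = 0.718). Dntt was at 317, 830, 322 and 216 in ERaKO mice given estrogen, against 2773, 818, 1472 and 878 in ERaKO mice given vehicle. In WT mice Dntt was at 2458, 1106, 151 and 228 after estrogen and at 1736, 1073, 1822 and 1283 under vehicle. In ERaKO mice 1 value on each side crossed by a small margin. In WT mice replicates 3 and 4 given estrogen lay far below all vehicle mice on this probe set, while replicates 1 and 2 did not. On the next brightest Dntt probe set the WT signals were 1510, 622, 163 and 526 after estrogen, against 709 to 1071 under vehicle. There replicate 2 also lay below all vehicle mice, and replicate 4 was closer to them. The averaged difference of Dntt was −1.56 ± 0.46 (limma adjusted p = 0.730), and its other 2 probe sets gave −1.12 ± 0.33 and −0.98 ± 0.39.

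Rag2 was measured near the bottom of the array's range, with its mean at the 28.9 percentile of all probe sets. It was at 169, 81.9, 13.5 and 17.9 in ERaKO mice given estrogen, against 154, 94.3, 108 and 7.84 in ERaKO mice given vehicle. In WT mice Rag2 was at 70.1, 46.5, 6.55 and 45.0 after estrogen and at 150, 263, 94.2 and 57.2 under vehicle. The ERaKO groups covered similar ranges and the WT groups overlapped at 1 vehicle mouse, and the averaged difference was −0.91 ± 0.48.

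The lineage factors and the receptor subunits differed less. Ebf1 was at 857, 732, 513 and 274 in ERaKO mice given estrogen, against 1203, 1006, 587 and 361 in ERaKO mice given vehicle. In WT mice Ebf1 was at 669, 619, 154 and 406 after estrogen and at 822, 1389, 690 and 491 under vehicle. The groups overlapped in both genotypes, and replicates 3 and 4 lay below replicates 1 and 2 in each of the 4 groups. The averaged Ebf1 difference was −0.66 ± 0.33. The other 4 Ebf1 probe sets gave −0.67 ± 0.26, −0.42 ± 0.22, −0.32 ± 0.21 and 0.31 ± 0.31, the last from a dim probe set with signals of 7.58 to 127. Pax5 ranged only from 166 to 420 over the 16 mice, with means of 241 ± 49.3 and 237 ± 42.2 in ERaKO mice given estrogen and vehicle, and 249 ± 116 and 293 ± 37.5 in WT mice given estrogen and vehicle (SD, n = 4 each). Its averaged difference was −0.14 ± 0.18, the smallest of the 10 genes. The signal of this probe set correlated with those of the other 9 genes only at r from −0.03 to 0.26 over the 16 mice. How well it follows Pax5 RNA was not tested. The other Pax5 probe set was dim, with signals of 9.13 to 62.5, and gave −0.18 ± 0.38 in ERaKO mice and 0.01 ± 0.38 in WT mice.

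Cd79a was at 753, 1550, 1942 and 1180 in ERaKO mice given estrogen, against 3420, 2819, 1829 and 912 in ERaKO mice given vehicle. In WT mice Cd79a was at 2120, 1054, 868 and 1774 after estrogen and at 2341, 1374, 2703 and 1865 under vehicle. Its groups overlapped in both genotypes, with an averaged difference of −0.60 ± 0.27. Cd79b averaged 1132 ± 178 and 1910 ± 1044 in ERaKO mice given estrogen and vehicle, and 1331 ± 610 and 1820 ± 376 in WT mice given estrogen and vehicle (SD, n = 4 each). Its difference was −0.56 ± 0.24, close to that of its partner Cd79a.

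Set against the whole array, all 10 genes were lower on average after estrogen and 0 of them passed at an adjusted p under 0.05 (limma, Benjamini-Hochberg over 45037 probe sets), as did 0.00222% of all probe sets. At an unadjusted p under 0.05, 7 of the 10 were lower, against 2.61% of all probe sets that were lower by that rule. The median difference of the 10 genes was −0.97, against −0.0031 over all probe sets, and 17 of the 18 probe sets were lower. Ordered from the lowest difference of all 45037 probe sets, Vpreb1 took rank 1, Igll1 rank 2, Dntt rank 4 and Rag1 rank 8, then Vpreb3 rank 65 and Rag2 rank 134. Ebf1, Cd79a and Cd79b took ranks 598, 855 and 1079, and Pax5 rank 12030. These ranks are for the averaged difference. By genotype, Vpreb1 and Igll1 took ranks 3 and 4 in ERaKO mice and ranks 11 and 100 in WT mice. By set, they took ranks 1 and 7 in replicates 3 and 4 and ranks 668 and 111 in replicates 1 and 2. In bulk tissue, fewer B cell precursors and less RNA of these genes per cell cannot be told apart.

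**Figure D2:**
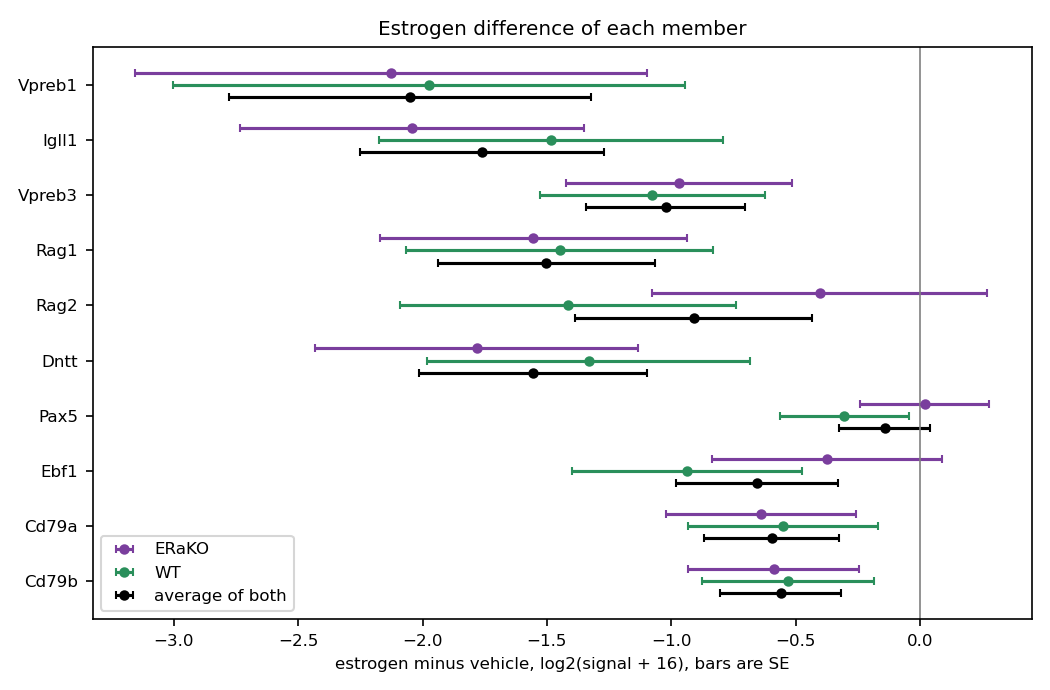
Estrogen minus vehicle of each gene in ERaKO mice (purple), WT mice (green) and averaged over both (black), as log2(signal + 16) with SE. The averaged values run from −2.05 for Vpreb1 to −0.14 for Pax5, and the ERaKO and WT bars of each gene overlap or lie close, with Rag2 the farthest apart.

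Taken by genotype, the genes stood lower after estrogen in ERaKO and in WT mice alike, without a call in either. In ERaKO mice 9 of 10 were lower with a median of −0.81, and 4 were lower at an unadjusted p under 0.05, against 2.13% of all probe sets. The ERaKO differences were −2.13 ± 1.03 for Vpreb1, −2.04 ± 0.69 for Igll1, −1.78 ± 0.65 for Dntt and −1.56 ± 0.62 for Rag1, and Pax5 stood at 0.02 ± 0.26. In WT mice 10 of 10 were lower with a median of −1.20, and 3 were lower at an unadjusted p under 0.05, against 3.57% of all probe sets. The WT differences were −1.98 ± 1.03 for Vpreb1, −1.48 ± 0.69 for Igll1, −1.33 ± 0.65 for Dntt and −1.45 ± 0.62 for Rag1. By limma 0 of 10 genes and 0% of all probe sets passed in either genotype. All 4 estrogen mice lay below all 4 vehicle mice for 0 of the 10 genes in ERaKO mice (2.03% of all probe sets) and for 0 in WT mice (1.71% of all).

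The test of whether the estrogen response depended on the receptor in osteoclasts is the ERaKO response minus the WT response. It was −0.15 ± 1.46 for Vpreb1, −0.56 ± 0.98 for Igll1, −0.45 ± 0.92 for Dntt and −0.11 ± 0.87 for Rag1, and ran from −0.56 to 1.01 over the 10 genes, with a median of −0.07. By limma 0 of the 10 passed (0% of all probe sets), the smallest adjusted p of their 18 probe sets was 0.945, and 0 reached an unadjusted p under 0.05 (5.34% of all). The SE of that difference was 1.46 for Vpreb1, whose averaged response was −2.05, and 0.37 for Pax5, the lowest of the 10 genes. Averaged over treatments, ERaKO minus WT was −0.27 ± 0.73 for Vpreb1, −0.41 ± 0.49 for Igll1, −0.36 ± 0.46 for Dntt and 0.12 ± 0.44 for Rag1, with a median of −0.12 over the 10 genes. Again 0 of 10 passed by limma (0% of all probe sets), and 0 reached an unadjusted p under 0.05 (3.24% of all). Under vehicle alone the ERaKO minus WT values ran from −0.69 to 0.18, and after estrogen alone from −0.69 to 0.42, with 0 genes passing in either (0% of all probe sets).

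Between the replicate sets, 1 probe set of Ebf1 and that of Rag2 passed the test. The brightest Ebf1 probe set fell by 1.11 ± 0.19 in replicates 3 and 4 relative to replicates 1 and 2, with the group as a term (limma adjusted p = 0.00127), and Rag2 fell by 1.42 ± 0.34 (adjusted p = 0.0121). The other 4 Ebf1 probe sets stood at −0.33, −0.39, −0.29 and 0.084 with adjusted p-values from 0.231 to 0.900, so 1 of the 5 passed. Signals of the brightest Ebf1 probe set were 154 to 690 in replicates 3 and 4, with a median of 449, against 619 to 1389 with a median of 839 in replicates 1 and 2. Rag2 signals were 6.55 to 108 with a median of 31.4 in replicates 3 and 4, against 46.5 to 263 with a median of 122 in replicates 1 and 2. Both sets overlapped for each gene. Without the 3 arrays whose spike-in signal was high, all of them in replicates 1 and 2, Rag2 was at −1.27 and no longer passed (limma adjusted p = 0.0676), while Igll1 passed at −1.65 (adjusted p = 0.0287). The call on Rag2 also ended without WT estrogen replicate 3 and ERaKO vehicle replicate 1 together (−1.26, adjusted p = 0.0553). These 2 calls among 10 genes stand beside 11.2% of all probe sets that passed in the same comparison, so a count of this size is near the background. Vpreb1 stood at −1.51 ± 0.62 (adjusted p = 0.130), Igll1 at −1.07 ± 0.41 (0.101) and Dntt at −1.05 ± 0.38 (0.0818), and in replicates 3 and 4 the signal was lower for 9 of the 10 genes (median −0.81). Over the same sets, 13 of 13 skeletal muscle genes fell (median −4.19), with summed signals of 4142 to 41735 in replicates 3 and 4, against 96741 to 769245 in replicates 1 and 2. Osteoclast genes were higher for 10 of 10, and 7 passed, with sums of 45931 to 69575 in replicates 3 and 4, against 23756 to 44161 in replicates 1 and 2. The part of tissue make-up in the differences of Ebf1 and Rag2 was not tested.

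Read within the replicate sets, the estrogen difference of Vpreb1 and Dntt was deepest in replicates 3 and 4. Averaged over genotypes within replicates 3 and 4, estrogen minus vehicle was −3.21 ± 0.74 for Vpreb1, −2.49 ± 0.39 for Dntt, −2.26 ± 0.55 for Igll1 and −1.81 ± 0.55 for Rag1. The limma adjusted p-values were 0.265, 0.0592, 0.301 and 0.555, so 0 of 10 passed, beside 0.0133% of all probe sets. The other 2 Dntt probe sets were at −1.32 ± 0.48 and −1.55 ± 0.38 there (adjusted p = 0.735 and 0.304). The brightest was near the threshold and crossed it under some settings, with an adjusted p of 0.0271 with array weights, and without WT estrogen replicate 4 both Vpreb1 (−4.24, adjusted p = 0.0187) and Dntt (−2.63, adjusted p = 0.0388) passed. Without WT estrogen replicate 3 the median of the 10 genes in that set was −0.63. In that set all 4 estrogen mice lay below all 4 vehicle mice for Vpreb1, Igll1 and Dntt, which is 3 of the 10 genes, beside 2.39% of all probe sets. Within replicates 1 and 2 the same differences were −0.89 ± 0.74 for Vpreb1, −0.63 ± 0.39 for Dntt, −1.26 ± 0.55 for Igll1 and −1.20 ± 0.55 for Rag1, with 0 of 10 passing (0% of all probe sets). There the estrogen and vehicle mice overlapped for all 10 genes, beside 0.901% of probe sets whose estrogen mice lay wholly below. All 10 genes were lower on average in each set, with medians of −1.05 in replicates 3 and 4 and −0.84 in replicates 1 and 2. Without the 3 arrays of raised spike-in signal the median in replicates 1 and 2 was −0.43. At an unadjusted p under 0.05, 6 genes were lower in replicates 3 and 4 (3.37% of all probe sets) and 5 in replicates 1 and 2 (2.39% of all).

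The test of the difference between the sets, averaged over genotypes, gave −2.31 ± 1.05 for Vpreb1 and −1.86 ± 0.54 for Dntt, and 0 of 10 genes passed (limma, 0% of all probe sets). The other 2 Dntt probe sets, which do not carry the cross-hybridisation suffix, gave −0.67 ± 0.67 and −0.86 ± 0.53. In WT mice the response in replicates 3 and 4 minus that in replicates 1 and 2 was −4.39 ± 1.49 for Vpreb1, −3.21 ± 0.77 for Dntt, −2.48 ± 1.09 for Igll1 and −2.16 ± 1.09 for Rag1, with adjusted p-values from 0.655 to 0.716, and −0.59 ± 0.65 for Cd79a and −0.93 ± 0.53 for Cd79b. In ERaKO mice it was −0.23 ± 1.49 for Vpreb1, −0.52 ± 0.77 for Dntt, 0.47 ± 1.09 for Igll1 and 0.94 ± 1.09 for Rag1, and 1.73 ± 0.65 for Cd79a and 1.25 ± 0.53 for Cd79b. For Dntt the other 2 probe sets gave −1.57 ± 0.95 and −1.80 ± 0.75 in WT mice and 0.23 ± 0.95 and 0.080 ± 0.75 in ERaKO mice. None of these passed by limma. Whether the gap differed between the genotypes was not tested. With 2 mice against 2, the response of Vpreb1 was −2.24 and −2.01 in ERaKO replicates 3 and 4 and replicates 1 and 2, and −4.17 and 0.22 in WT replicates 3 and 4 and replicates 1 and 2. Igll1, Vpreb3, Rag1, Rag2 and Ebf1 were lower in each of these 4 small comparisons, though Rag2 by only −0.027 in ERaKO replicates 1 and 2. Vpreb1, Dntt, Cd79a, Cd79b and Pax5 were lower in 3. Of the 10 genes, 8 were lower in ERaKO replicates 3 and 4 and 9 in ERaKO replicates 1 and 2. In WT mice 10 were lower in replicates 3 and 4 and 8 in replicates 1 and 2.

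**Figure D3:**
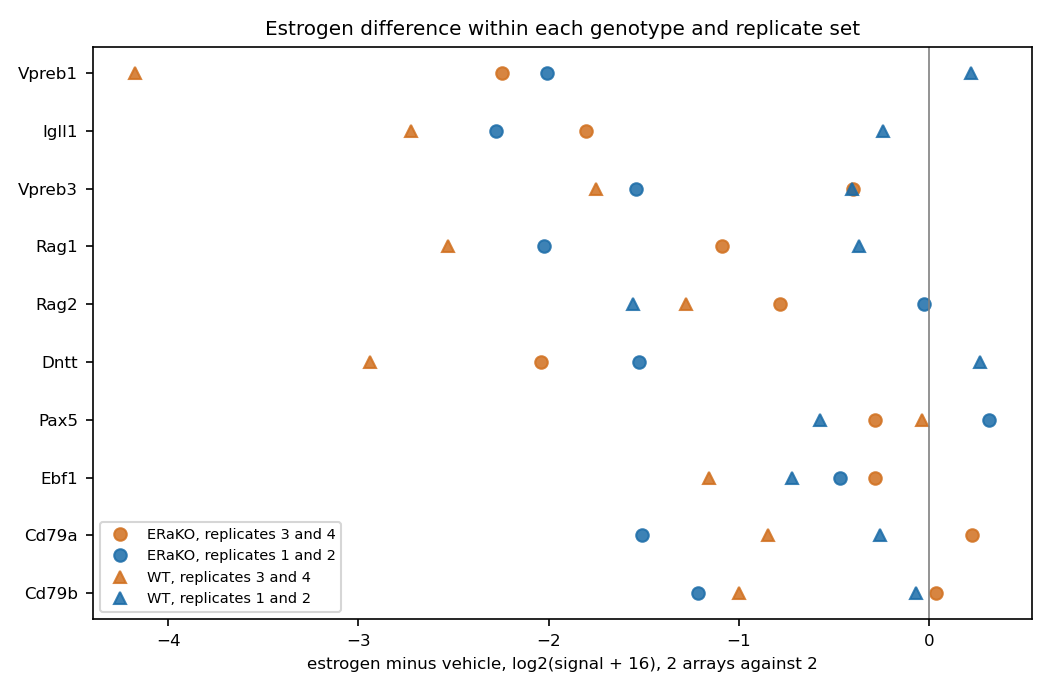
Estrogen minus vehicle of each gene, 2 mice against 2, in ERaKO mice (circles) and WT mice (triangles), for replicates 3 and 4 (orange) and replicates 1 and 2 (blue), as log2(signal + 16). Vpreb1 runs from −4.17 in WT replicates 3 and 4 to 0.22 in WT replicates 1 and 2.

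Single mice carried much of the WT values. WT estrogen replicate 3 had the lowest signal of all 16 mice for 8 of the 10 genes and was among the lowest 4 for all 10. Without that mouse the WT response was −0.56 for Vpreb1, −0.79 for Igll1, −0.73 for Dntt, −0.75 for Rag1 and −0.61 for Vpreb3, and the median of the 10 genes was −0.58. The averaged responses without it were −1.34, −1.41, −1.26, −1.15 and −0.79, still all lower. Conversely, without WT estrogen replicate 1, where Vpreb1 stood at 6306, the WT response of Vpreb1 was −2.89 and the median of the 10 genes −1.54. ERaKO vehicle replicate 1 was the highest mouse for 7 genes. Without it the ERaKO response was −1.75 for Vpreb1, −1.67 for Igll1 and −1.19 for Rag1, and the median of the 10 genes was −0.55. From the lowest to the highest of the 16 mice the signal differed 25.6-fold for Igll1, 18.4-fold for Dntt, 4.45-fold for Cd79b and 2.53-fold for Pax5. Vpreb1 ran from 33.1 to 6964, and no fold is given because its lowest signal was not shown to lie above background.

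Most of the genes varied together over all 16 mice, with the differences between groups and sets left in. Over the 16 mice Vpreb1 and Igll1 correlated at r = 0.94 and rho = 0.96, each with a permutation p of 1e-05, the smallest that 100000 permutations can give (adjusted p = 5e-05 and 5.6e-05 over the 45 pairs of the 10 genes). Without the 2 mice farthest from the Vpreb1 median, r was 0.95, and it was 0.96 among replicates 3 and 4 alone and 0.95 among replicates 1 and 2 alone. The closest pair was Vpreb3 and Rag1, with r = 0.98 and rho = 0.99. Rag2 and Ebf1, the pair that passed between the replicate sets, correlated at r = 0.88 and rho = 0.90 over all mice, and at 0.75 among replicates 3 and 4 alone and 0.84 among replicates 1 and 2 alone. Vpreb1 and Rag2 had r = 0.60 and rho = 0.54 over all mice (permutation p = 0.013 and 0.032, adjusted 0.02 and 0.054), but 0.73 among replicates 3 and 4 alone and −0.16 among replicates 1 and 2 alone. Of the 36 pairs without Pax5, r ran from 0.40 to 0.98 with a median of 0.79, and 34 passed by r and 26 by rho after adjustment. Within the sets, the 14 pairs of Rag2 or Ebf1 with another gene had r from 0.70 to 0.96 in replicates 3 and 4 and from −0.16 to 0.45 in replicates 1 and 2, so these relations did not hold in both sets. The 21 pairs of the other 7 genes had r from 0.54 to 0.98 in replicates 3 and 4 and from 0.72 to 0.99 in replicates 1 and 2. The 9 pairs with Pax5 had r from −0.03 to 0.26 over all mice, and 0 passed. Within the sets they had r from 0.31 to 0.73 in replicates 3 and 4 and from −0.22 to 0.32 in replicates 1 and 2. The mice of 1 group share a treatment and those of 1 set a tissue make-up, so the points are not drawn from 1 population. Group means were not removed, so shifts shared by a group or set enter both r and the permutation p. Covariation among mice of the same group was not tested.

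Other genes of the same pathways, in lists that do not share a member with these 10, had smaller median differences. None of the 15 lists described had a gene that passed by limma for the averaged estrogen response. Over the 18193 genes, each by its brightest probe set, the median was 0.00, 49.3% were lower, and 2.92% were lower at an unadjusted p under 0.05. Of 14 further transcription factors of the B lineage, 11 were lower with a median of −0.26, and 4 were lower at an unadjusted p under 0.05. Irf4, a factor of pre-B and plasma cells, stood at −1.44 ± 0.42, Bach2, which restrains plasma cell fate, at −1.11 ± 0.30, and Spib, an Ets factor, at −0.82 ± 0.29. Of 10 components of pre-B receptor signalling 8 were lower, with a median of −0.12, and the adaptor Blnk, the 1 gene lower at an unadjusted p under 0.05, stood at −0.81 ± 0.27. Of 11 early surface and cytokine receptors 7 were lower, with a median of −0.09. At an unadjusted p under 0.05, 3 of them were lower and 2 higher: Il7r, the interleukin 7 receptor on which mouse B precursors depend, stood at −0.65 ± 0.24, and Flt3 and Bst1, singled out after their values were seen, at 0.43 ± 0.19 and 0.44 ± 0.18. Of 9 partners of V(D)J recombination and end joining 6 were lower, with a median of −0.20. They included Polm at −0.49 and Lig4 at −0.33. At an unadjusted p under 0.05 (limma), 1 of the 9 was lower and 0 were higher.

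Later B lineage stages were near the same small values. Of 12 mature B cell genes 9 were lower with a median of −0.19, with the heavy chain gene Ighm at −0.67 ± 0.29. By set, 7 of the 12 were higher in replicates 3 and 4 (median 0.14) and 12 of 12 lower in replicates 1 and 2 (median −0.33). Of 7 plasma cell genes 4 were lower and 3 higher with a median of −0.14, with Mzb1 at −0.92 ± 0.25 and Jchain at −0.73 ± 0.30. At an unadjusted p under 0.05 (limma), 2 of the 7 were lower and 1 higher. Their median was 0.02 in replicates 3 and 4 and −0.32 in replicates 1 and 2. Of 10 niche genes on which B precursors depend, 7 were lower with a median of −0.25, and the growth factor Igf1 stood at −0.85 ± 0.22. The cell division list, 14 genes, had an averaged median of −0.02 with 9 lower. Within replicates 3 and 4 all 14 were higher (median 0.11), and within replicates 1 and 2 there were 11 lower (median −0.12). By genotype 11 were lower in ERaKO mice (median −0.11) and 12 higher in WT mice (median 0.14).

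**Figure D4:**
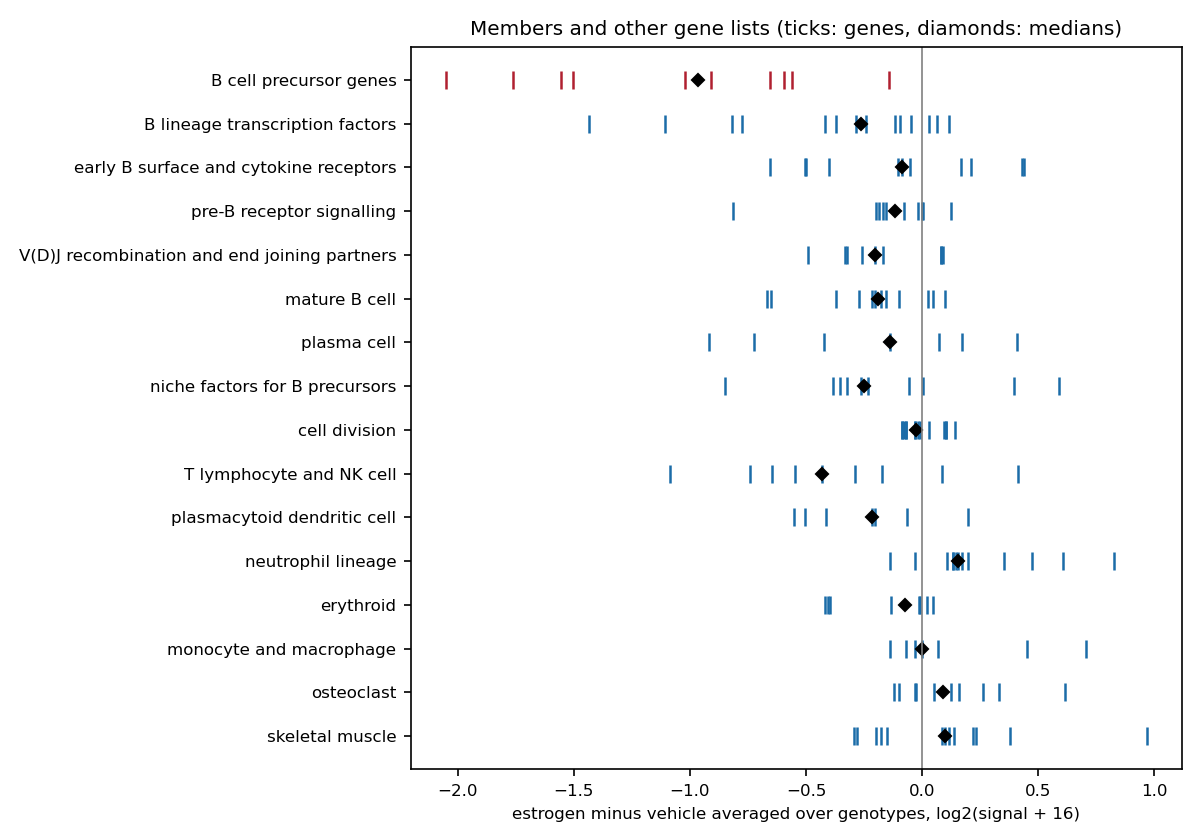
Averaged estrogen minus vehicle of the 10 genes (red ticks) and of the genes of 15 other lists (blue ticks), as log2(signal + 16), with medians as black diamonds. The median of the 10 genes is −0.97, and those of the other lists lie between −0.43 and 0.15.

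Markers of other marrow cells, of osteoclasts and of skeletal muscle gave the following values beside these. Of 9 T lymphocyte and NK cell genes 7 were lower, with a median of −0.43 and Cd3d, a subunit of the T cell receptor complex, at −1.08 ± 0.30. Their summed signals were 3519 to 5040 in ERaKO mice given estrogen and 4334 to 5503 in ERaKO mice given vehicle, against 4094 to 5254 in WT mice given estrogen and 4053 to 4275 in WT mice given vehicle. Of 13 neutrophil lineage genes 11 were higher, with a median of 0.15 and the granule protease genes Ctsg and Prtn3 at 0.83 ± 0.24 and 0.61. Their summed signals were 289377 to 433542 in ERaKO mice given estrogen and 255022 to 366250 in ERaKO mice given vehicle, against 304860 to 761624 in WT mice given estrogen and 257099 to 665990 in WT mice given vehicle. Of 7 plasmacytoid dendritic cell genes, some of which early lymphoid cells share, 6 were lower with a median of −0.22. Of 8 erythroid genes 6 were lower with a median of −0.08, of 7 monocyte and macrophage genes 4 with a median of −0.00, and of 10 osteoclast genes 4 with a median of 0.09. The 13 skeletal muscle genes had a median of 0.10 on average, but stood at 1.09 in ERaKO mice with 13 higher and at −0.996 in WT mice with 12 lower. At an unadjusted p under 0.05, 3 of the T and NK cell genes and 2 of the plasmacytoid genes were lower, 3 of the neutrophil and 2 of the monocyte genes were higher, and 0 of the erythroid, osteoclast and muscle genes were either. Their part in the estrogen values of the 10 genes was not tested.

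The genes most like the 10 were sought by Pearson r over the 16 mice with the mean of the 10 standardised profiles, among 14266 genes whose mean lay above the 30 percentile of all. Leaving out the 10 genes themselves, the closest were Mzb1 (r = 0.96), Niban3 (0.93), Il7r (0.92), Akap12 (0.91), Myl4 (0.90) and Blnk (0.90), followed by Pou2af1, Mcpt8, Fcrla, Cnp, Ptprcap and Ly6d at 0.89 to 0.87. Within replicates 3 and 4 these 12 had r from 0.83 to 0.98, and within replicates 1 and 2 from 0.72 to 0.96. Mzb1 differed by −0.98 after estrogen in ERaKO mice and by −0.86 in WT mice. Of the 10 genes, Rag1, Vpreb3, Igll1 and Vpreb1 ranked 2, 3, 4 and 7 in the same order, whereas Pax5 ranked 3121 with r = 0.26. Each of the 10 is part of the mean profile, which by itself raises its r, so these ranks are no separate evidence of likeness. Rag2, whose mean lay under the 30 percentile, was not ranked. Closest to Vpreb1 alone were Igll1 (0.94), Adam19 (0.94) and 4833407H14Rik (0.93).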

How the data were processed

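Total RNA of the femur was measured on 16 Affymetrix mouse whole-genome arrays. Per the submitters' processing notes the authors used GCOS, whose version and background correction the labels do not state, and they deposited 1 linear intensity for each probe set. A 2% trimmed mean came to 500 for every array, so the intensities were left as deposited. Of 45101 probe sets 64 controls were left out. Platform annotation gave 1 symbol for 34958 probe sets and several for 932, and 34754 were matched to the RefSeq gene table.

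Signals were taken as log2(signal + 16), which understates the differences of dim probe sets. All 45037 probe sets were fitted without a filter in limma 3.58.1 (R 4.3.3, lmFit and eBayes with a variance trend), with 1 mean per group. A replicate set term, or 1 mean per group and set, was added for the set comparisons. P-values are two-sided, adjusted by Benjamini-Hochberg over all probe sets, and called under 0.05. The step was tested on simulated data for the averaged estrogen comparison. With 100 probe sets of 45037 changed at each size, 57% were recovered at a log2 change of 1 and 96% at 2. These shares describe the simulated probe sets only and are not the power for the B cell precursor genes. In the measured data 5030 probe sets passed between the replicate sets (limma), and a fit with 1 mean per group leaves such differences in its scatter. Vpreb1, at −2.05 ± 0.73 (SE) for the averaged estrogen comparison, had a limma adjusted p of 0.962. Replicates are separate mice, and 4 mice per group limit the precision.

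The 10 genes and the 15 lists were chosen with earlier results of these data known. All 10 genes are named, with up to 3 genes of each list by largest averaged estrogen difference, and the 12 genes of highest r with the mean profile. Esr1, Acta1, Ms4a1, Ighm, Ctsk and Acp5 are named as checks of the tissue and the target. Alternatives were other pseudocounts (1 and 64), filters on dim probe sets (30 and 50 percentile), 1 probe set per gene together with leaving out the dimmest 30% of genes, quantile normalization, array weights, no variance trend, the replicate number or set as a term, leaving out each array, and leaving out the 3 arrays of high spike-in signal. Leaving out WT estrogen replicate 3 with ERaKO vehicle replicate 1 was chosen after seeing the data.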

Additional observations from a re-analysis of the deposited data

How the results depend on the processing

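Under each alternative run, leaving out 1 array included, 0 of the 10 genes passed in the estrogen and genotype comparisons over both replicate sets and in the tests of the set difference of response. The calls that moved were within replicates 3 and 4, where Dntt passed with a pseudocount of 1, with 1 probe set per gene and the dimmest 30% of genes left out (the gene fit, 12735 genes) and with array weights (1 gene each, adjusted p = 0.0496, 0.0272 and 0.0271), and 0 to 2 genes passed when 1 array was left out: Vpreb1 and Dntt without WT estrogen replicate 4, and Dntt alone without ERaKO vehicle replicate 1 or 2 or ERaKO estrogen replicate 1 or 2. Between the replicate sets, 1 gene in place of 2 passed with the 30 and 50 percentile filters and in the gene fit, which all drop Rag2, and without WT estrogen replicate 3 and ERaKO vehicle replicate 1 (the end arrays). Igll1 passed there with array weights (adjusted p = 0.0365) or without ERaKO estrogen replicate 1 (0.0392), and Dntt without ERaKO vehicle replicate 2 (0.0329). Signal over background limits 4 of the 18 probe sets, Rag2 among them, whose means lie under the 30 percentile.

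Counts over all probe sets moved as follows. Within replicates 3 and 4 the 6 calls became 10 with a pseudocount of 1, 3 with 64, 14 in the gene fit, 22 with array weights and 0 without the variance trend. For the averaged estrogen response the 1 call became 2 in the gene fit, with the replicate block and with the set term, 3 with weights, and 4 without the 3 arrays whose spike-in signal was high. Between the sets, 5030 of 45037 probe sets passed, 2487 without those 3 arrays, and in the gene fit 2285 of 12735, a larger share of fewer features. From 0 calls, ERaKO estrogen had 2 with weights and 1 without those 3 arrays, the averaged genotype difference 1 with weights and 1 with the set term, and WT estrogen 3 with the set term. Without those 3 arrays the set difference of response had 2 averaged and 2 in WT mice, and the estrogen response within replicates 1 and 2 had 2. The set difference in WT mice had 3 without the end arrays. The pairing by replicate number was not borne out, with same-number correlations of 0.0947 to 0.447 and 5 of 16 arrays closest to their own number, and the replicate block changed no call among the 10 genes.

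Signs turned only for values far from the threshold. Pax5 in ERaKO mice was −0.026 with weights and −0.037 without the end arrays (0.02 as reported), and Rag1 between genotypes −0.079 and −0.41 (0.12 as reported). Without the 3 arrays the ERaKO minus WT response was 0.080 for Dntt, 0.20 for Rag1 and 0.68 for Vpreb1, the genotype difference of Vpreb1 was 0.082 and the set difference of Igll1 in ERaKO mice −0.79. Without the end arrays the set values of Cd79a and Vpreb3 were 0.066 and 0.011, and Pax5 within replicates 3 and 4 was 0.086.

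Leaving out 1 array, counts over all probe sets ran 0 to 105 and 0 to 59 for the set difference of response in ERaKO and WT mice, 0 to 2 averaged, 0 to 1 for genotype, 1 to 2 for the averaged estrogen response, 0 to 1 in ERaKO mice, 0 to 9 and 0 to 77 within replicates 1 and 2 and replicates 3 and 4, and 3157 to 5346 between sets. Ranges that crossed 0 were −0.33 to 0.0080 for Cd79a between sets, −1.39 to 0.35 (Dntt), −0.79 to 1.74 (Igll1) and −1.41 to 0.94 (Vpreb1) for the set difference in ERaKO mice, and −1.32 to 0.092 for Rag1 averaged. For ERaKO minus WT response they were −1.05 to 0.25 (Dntt), −1.26 to 0.13 (Igll1), −0.80 to 0.39 (Rag1) and −1.57 to 0.77 (Vpreb1). For genotype they were −0.22 to 0.37 (Rag1) and −0.98 to 0.19 (Vpreb1), and for Pax5 −0.11 to 0.13 in ERaKO mice and −0.40 to 0.086 within replicates 3 and 4. The causes were not tested.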
